A study of Mus musculus with 26 samples.

Results

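The genes of the constitutive proteasome were followed in mouse muscle across 2 diets and 2 genotypes. They were taken as every probe set that names 1 gene with a platform symbol made of Psma, Psmb, Psmc or Psmd and a number, leaving out the immunoproteasome subunits Psmb8, Psmb9 and Psmb10. The rule found 76 of the 34945 probe sets that name 1 gene. They belong to 37 genes, 16 of the core particle (Psma and Psmb symbols, 30 probe sets) and 21 of the regulatory particle (Psmc and Psmd symbols, 46 probe sets). A filter on dim probe sets was passed by 35 of the 37 genes, and these were tested among 14088 genes, 14 in the core and all 21 in the regulatory particle. The other two were Psma8, a core subunit of the testis, with a mean intensity of 110.4 over all arrays, and Psmb11, the core subunit of the thymus cortex, with 159.0. The rule also takes in 4 genes that are no part of the finished particle. Psmd5, Psmd9 and Psmd10 encode chaperones that assemble its base, and Psmc3ip encodes a partner of the meiotic recombinases that only shares a stem of its symbol.

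The proteasome is the protease that breaks down proteins marked with ubiquitin. Its core is a barrel of stacked rings, in which alpha subunits form a gated entrance and beta subunits enclose the catalytic sites. The regulatory particle sits on the end of the barrel. Its base holds a ring of ATPases that unfold the substrate and thread it into the core, and receptors for ubiquitin, while its lid removes the ubiquitin chain. In skeletal muscle this system breaks down much of the myofibrillar protein that is lost during wasting, and it works with muscle ubiquitin ligases such as those encoded by Fbxo32 and Trim63.

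Total RNA came from tibialis anterior and extensor digitorum longus (TA/EDL), fast muscles of the lower leg, and was hybridised to 1-colour Affymetrix arrays, 1 array per mouse. FLOX mice and mice with a knockout of PGC-1a in skeletal muscle (MKO) were singly housed littermates on a mixed C57/BL6 and 129 background, so all mice shared that background and the AIN-93M diet they ate before the split. On the control diet there were 6 FLOX and 7 MKO mice, held at 90% of the food they had eaten freely. Under calorie restriction (CR) there were 6 FLOX and 7 MKO mice, first given 80% of that intake for 1 week, then the 40% restriction form of AIN-93M at 60% of it for about 11 weeks, 12 weeks on the diets in all. The sources used here name neither the driver of the deletion nor the sex or age of the mice. The title of the series asks how far PGC-1a in muscle carries the changes made by CR. Each diet effect was therefore measured within a genotype and each genotype effect within a diet.

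The arrays were alike in brightness, with mean intensities of 577.9 to 586.6. Ppargc1a, the gene of PGC-1a, had 5 probe sets, and all were brighter in the mice labelled MKO, 1.55- to 1.84-fold on the control diet and 1.33- to 1.58-fold on CR. The sources used here do not say whether these probe sets read the deleted part, so they do not check the labels, and the mice are called labelled MKO throughout. The 11 markers of fast fibres were tested and summed to intensities of 308718 to 329632 in every mouse, so the muscle read as fast in all groups. The 6 slow fibre markers summed to 2562 to 9850 in control-diet FLOX, 6544 to 11324 in control-diet labelled MKO, 4011 to 7558 in CR FLOX and 7554 to 20709 in CR labelled MKO mice. In labelled MKO mice they had median log2 changes of 0.60 (control diet) and 0.57 (CR), with 1 of 6 called on each diet (Myl3 and Myl2). The slow fibre index used below is the mean log2 value of Myh7, Tnni1 and Tnnt1 in each mouse.

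Proteasome genes were higher in labelled MKO than in FLOX muscle on both diets. A gene was called when limma's moderated test gave an adjusted p under 0.05 over all genes tested. On the control diet 19 of the 35 proteasome genes were called higher, 7 of 14 in the core and 12 of 21 in the regulatory particle, while 9.57% of all genes tested were called higher. No proteasome gene was called lower there, against 10.8% of all genes. In either direction, 26 of the 35 had an unadjusted p under 0.05, against 4608 of the 14088 genes tested. Of these proteasome genes only Psmd9 was on the lower side. On CR 24 of the 35 were called higher, 9 core and 15 regulatory, against 8.69% of all genes. None was called lower on CR, against 9.52% of all genes. There 28 had an unadjusted p under 0.05, against 4266 of the 14088 genes tested. The changes were small, with a median log2 change of 0.12 on the control diet and 0.15 on CR over the 35 genes, and the largest was 1.35-fold. The median over all genes tested was -0.02 on each diet. In these whole muscle samples, a change in the share of a cell type and a change in RNA per cell cannot be told apart.

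**Figure D1:**
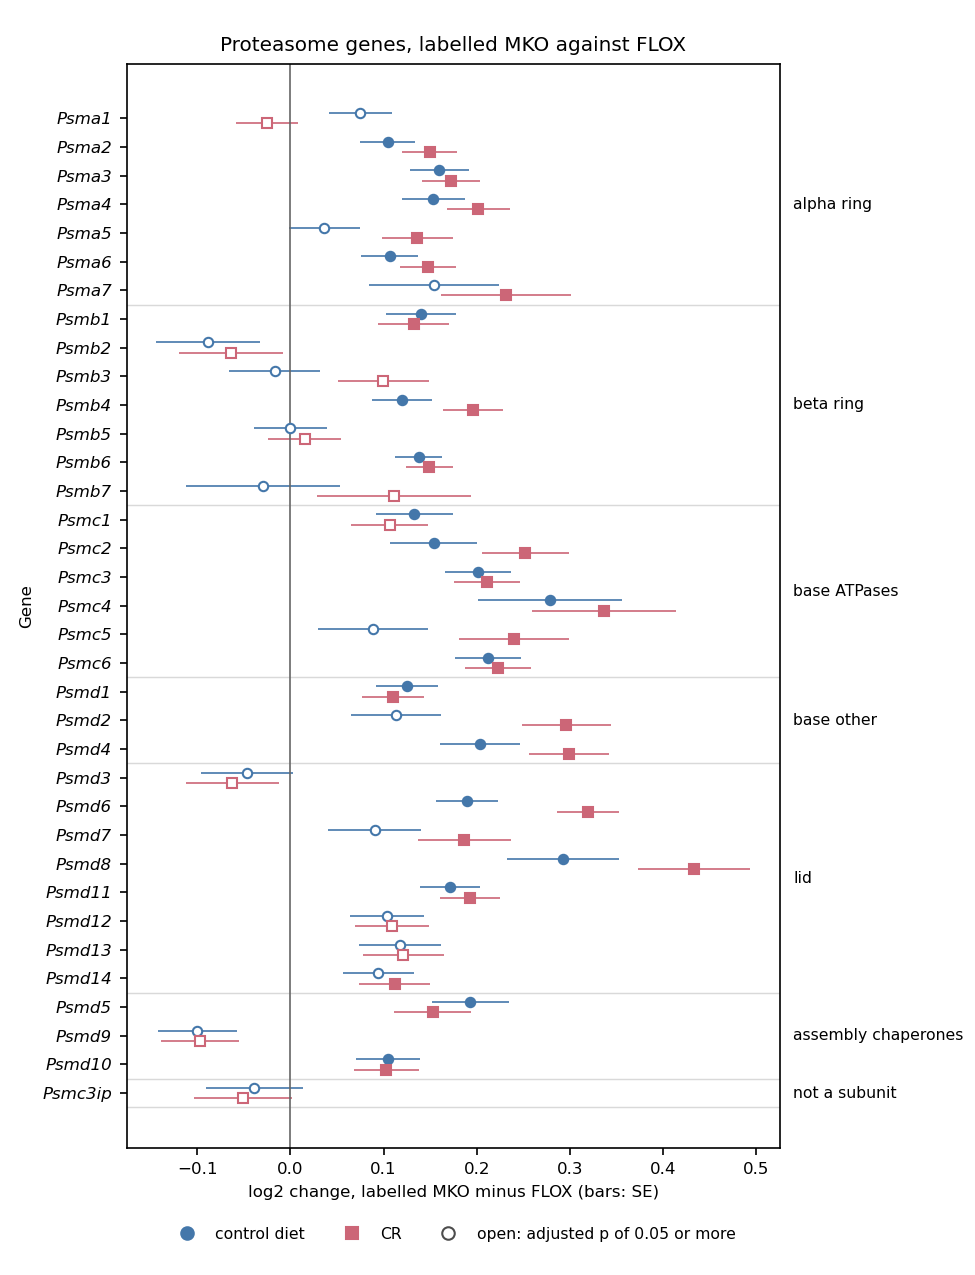
Log2 change of the 35 tested proteasome genes in labelled MKO relative to FLOX mice, on the control diet (blue circles) and on CR (red squares), ordered by part of the particle, with bars for the SE of the limma fit and open symbols for genes not called. Filled symbols lie to the right of 0 in every part of the particle, while Psmb2, Psmd3, Psmd9 and Psmc3ip lie to the left of 0 on both diets and are open.

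The 2 genotype comparisons share no mice. Of the 19 genes called higher on the control diet, 18 (94.7%) were called higher on CR, which is 75% of the 24 called there. Over all genes tested, 790 (5.61%) were called higher on both diets, of 1348 called higher on the control diet and 1224 on CR. The sign of the difference was the same on both diets for 31 of 35 proteasome genes (88.6%), against 77.3% of all genes tested. Psmc1 was called on the control diet only, and Psma5, Psma7, Psmc5, Psmd2, Psmd7 and Psmd14 on CR only, but a difference between the diets was called for none of them.

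**Figure D2:**
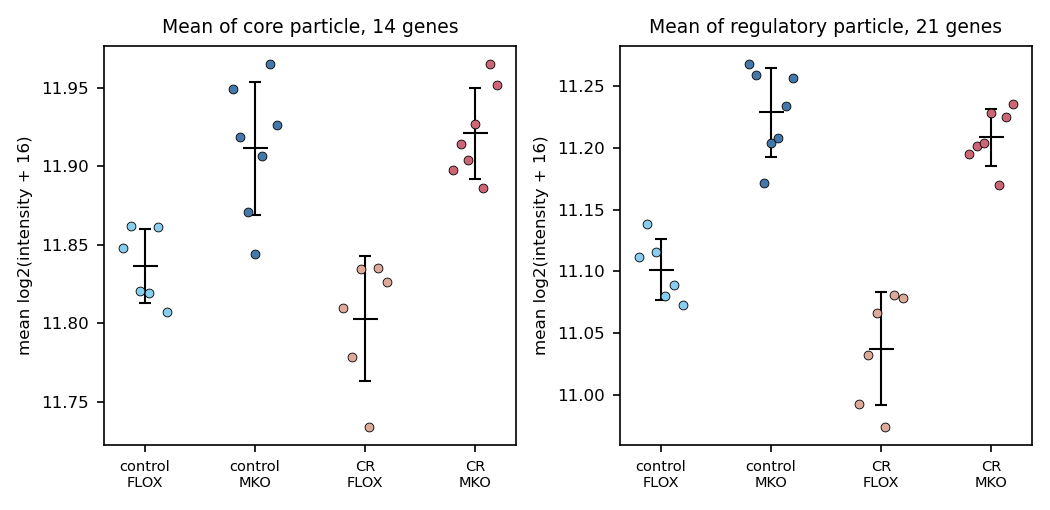
Mean log2(intensity + 16) per mouse over the 14 core genes (left) and the 21 regulatory genes (right) in the 4 groups, with the mean and SD of each group as bars. The regulatory mean of every labelled MKO mouse lies above every FLOX mouse on the same diet, and on the core mean 1 control-diet labelled MKO mouse, at 11.84, lies within the FLOX range.

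The level of each particle per mouse was summarised as the mean log2 value of its genes. For the regulatory particle this mean was 11.07 to 11.14 (median 11.10) in control-diet FLOX and 11.17 to 11.27 (median 11.23) in control-diet labelled MKO mice. On CR it was 10.97 to 11.08 (median 11.05) in FLOX and 11.17 to 11.24 (median 11.20) in labelled MKO mice, so that the genotypes did not overlap on either diet. For the core particle it was 11.81 to 11.86 (median 11.83) in control-diet FLOX and 11.84 to 11.97 (median 11.92) in control-diet labelled MKO mice, with 6 of 7 labelled MKO mice above every FLOX mouse. On CR the core mean was 11.73 to 11.84 (median 11.82) in FLOX and 11.89 to 11.97 (median 11.91) in labelled MKO mice, again without overlap. The core genes had median log2 changes of 0.11 (control diet) and 0.14 (CR). For the regulatory genes it was 0.13 and 0.19. Quantile normalization of the arrays lowered the core median on the control diet to 0.05, and 5 of 7 labelled MKO mice then lay above every FLOX mouse and 2 lay below every FLOX mouse. Under it 13 and 20 proteasome genes were called higher on the 2 diets. The calls lost were those of Psma2, Psma6, Psmb1, Psmb4, Psmc1 and Psmc2 on the control diet and of Psma6, Psmb1, Psmd1 and Psmd14 on CR.

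Upstream sequence is shown for Psmc6 and Psmb6, which were called higher in labelled MKO mice on both diets, and for Psmb5, which was called in no comparison. Psmc6 and Psmb6 were picked because they hold the first motif searched for below. They do not stand for the other genes called higher. RefSeq promoter windows on GRCm38.p6, from 250 bases before to 50 after each start, were matched for 30 of the 37 genes. They were searched on both strands for TGACNNNGC, the core of the antioxidant response element that the factors encoded by Nfe2l1 and Nfe2l2 bind. The motif was found for 5 of the 30 genes (16.7%), which were Psmb5, Psmb6, Psmc6, Psmd12 and Psmd9, against 14.0% of the 27025 genes in the table. CCAAT was found for 13 of the 30 (43.3%), against 41.1% of all. Among the 16 matched genes called higher on both diets, 2 held TGACNNNGC, and among the 7 matched genes called higher on neither diet 3 did. The 250 upstream bases follow with the match in capitals, from chr14:45329574-45329823 on the plus strand (Psmc6, 227 bases before the start, read on the minus strand), chr11:70525107-70525356 on the plus strand (Psmb6, 9 bases before the start) and chr14:54617996-54618245 on the minus strand (Psmb5, 47 bases before the start).
Psmc6: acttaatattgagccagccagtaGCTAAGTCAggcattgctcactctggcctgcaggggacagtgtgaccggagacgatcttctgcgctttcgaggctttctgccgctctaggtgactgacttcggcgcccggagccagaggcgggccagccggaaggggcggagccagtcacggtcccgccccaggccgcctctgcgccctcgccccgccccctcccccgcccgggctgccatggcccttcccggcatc
Psmb6: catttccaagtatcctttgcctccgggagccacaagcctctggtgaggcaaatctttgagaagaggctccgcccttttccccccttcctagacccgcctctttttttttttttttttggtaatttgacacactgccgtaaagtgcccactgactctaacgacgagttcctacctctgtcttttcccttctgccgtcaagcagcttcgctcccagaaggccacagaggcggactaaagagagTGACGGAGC
Psmb5: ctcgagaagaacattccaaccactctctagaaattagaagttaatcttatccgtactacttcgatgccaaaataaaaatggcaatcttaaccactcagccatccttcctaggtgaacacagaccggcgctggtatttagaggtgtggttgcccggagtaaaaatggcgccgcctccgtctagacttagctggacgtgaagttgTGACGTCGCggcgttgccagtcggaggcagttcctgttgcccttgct
The motif near the start is present upstream of Psmb6, which was higher in labelled MKO mice, and of Psmb5, which was not called.

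In the alpha ring, which forms the gated entrance of the core, 4 of 7 genes were called higher in labelled MKO mice on the control diet and 6 of 7 on CR. Psma3 ran from 5367 to 5640 in intensity (median 5528) in control-diet FLOX and from 5870 to 6618 (median 6126) in control-diet labelled MKO mice. On CR it ran from 5011 to 5485 (median 5372) in FLOX and from 5746 to 6286 (median 5957) in labelled MKO mice. The genotypes did not overlap on either diet, and the log2 change of Psma3 was 0.16 ± 0.03 (SE) on the control diet (adjusted p = 0.000599). Psma4, another alpha subunit, read 2384 to 2526 (median 2431) in control-diet FLOX and 2547 to 2813 (median 2765) in control-diet labelled MKO mice. On CR it read 2197 to 2603 (median 2451) in FLOX and 2694 to 2885 (median 2761) in labelled MKO mice. Psma4 too was without overlap on both diets, at 1.11-fold (adjusted p = 0.00188) on the control diet and 1.15-fold (adjusted p = 8.59e-05) on CR. Psma2 and Psma6 were called higher on both diets and Psma5 and Psma7 on CR, with log2 changes of 0.10 to 0.23. The call of Psma7 ended when mouse 2 or mouse 4 of CR FLOX was left out (adjusted p of 0.0669 at most). Psma1 was called in neither genotype comparison.

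The beta ring was divided. Psmb1, Psmb4 and Psmb6 were called higher on both diets and Psmb2, Psmb3, Psmb5 and Psmb7 on neither, so the 7 genes had median log2 changes of -0.00024 (control diet) and 0.11 (CR). Of the 3 catalytic subunits only Psmb6, which carries the caspase-like site, was called. Psmb6 read 4142 to 4489 (median 4315) in control-diet FLOX and 4619 to 4825 (median 4795) in control-diet labelled MKO mice, and 4392 to 4615 (median 4511) in CR FLOX and 4945 to 5093 (median 4979) in CR labelled MKO mice. All labelled MKO mice lay above all FLOX mice on the same diet, by a log2 change of 0.14 ± 0.03 (adjusted p = 0.00027) and 0.15 ± 0.03 (adjusted p = 8.17e-05). Psmb4, a beta subunit without a catalytic site, read 4951 to 5180 (median 5079) in control-diet FLOX and 5201 to 5779 (median 5552) in control-diet labelled MKO mice. On CR it read 4955 to 5419 (median 5337) in FLOX and 5731 to 6359 (median 5967) in labelled MKO mice. Its log2 change was 0.12 ± 0.03 (adjusted p = 0.00782) on the control diet and 0.20 ± 0.03 (adjusted p = 5.34e-05) on CR, again without overlap. Psmb1 changed by 0.13 to 0.14 on the log2 scale. Psmb1 was not called under quantile normalization (adjusted p = 0.155 and 0.159) or when its probe sets were averaged, and Psmb4 on the control diet had an adjusted p of 0.279 under quantile normalization.

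Psmb5 encodes the subunit of the chymotrypsin-like site. Its intensity was 4641 to 5393 (median 4969) in control-diet FLOX, 4549 to 5317 (median 4923) in control-diet labelled MKO, 4659 to 5040 (median 4800) in CR FLOX and 4774 to 5257 (median 4828) in CR labelled MKO mice, so that all groups overlapped. The log2 difference between genotypes was -0.00024 (95% interval -0.08 to 0.08) on the control diet and 0.02 (-0.07 to 0.10) on CR. These intervals leave out the 0.14 and 0.15 measured for Psmb6, though the difference between the genes was not tested. Psmb7, the subunit of the trypsin-like site, read 8226 to 9153 (median 8773) in control-diet FLOX and 8050 to 8356 (median 8146) in CR FLOX mice. In labelled MKO mice it read 5528 to 9696 (median 9016) on the control diet and 7744 to 9276 (median 9087) on CR. Control-diet labelled MKO mouse 3 held the 5528, with its 6 group mates at 8702 to 9696, and the groups overlapped on both diets. The log2 difference of Psmb7 was -0.03 ± 0.08 on the control diet, 0.07 without that mouse, and 0.11 ± 0.08 on CR, and it was called on neither (adjusted p = 0.836 and 0.393). Leaving out CR labelled MKO mouse 2, at 7744, brought the adjusted p on CR to 0.0434.

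**Figure D3:**
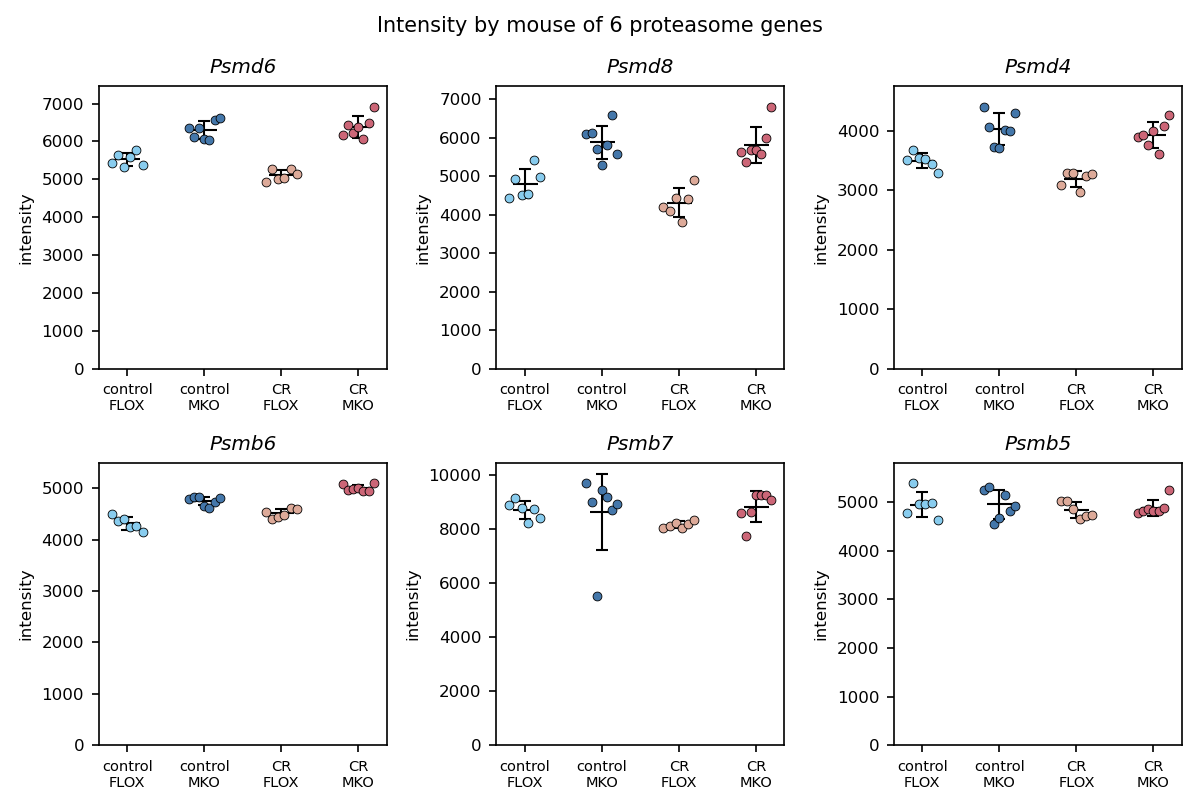
Intensity per mouse of 3 regulatory genes (Psmd6, Psmd8 and Psmd4, top) and the 3 catalytic core genes (Psmb6, Psmb7 and Psmb5, bottom) in the 4 groups, with the mean and SD of each group as bars and axes from 0. On each diet labelled MKO mice lie above FLOX mice for Psmd6, Psmd4 and Psmb6, while the groups overlap for Psmb5 and 1 control-diet labelled MKO mouse of Psmb7 lies at 5528.

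Among the 6 ATPases of the base, 5 were called higher in labelled MKO mice on each diet. Psmc6 read 3567 to 4067 (median 3770) in control-diet FLOX and 4200 to 4638 (median 4350) in control-diet labelled MKO mice. On CR it read 3543 to 3930 (median 3592) in FLOX and 4138 to 4422 (median 4317) in labelled MKO mice. There was no overlap on either diet, and Psmc6 had the smallest p of all proteasome genes on the control diet, at 0.21 ± 0.04 on the log2 scale (adjusted p = 0.000114). Psmc3 read 3217 to 3579 (median 3518) in FLOX and 3631 to 4161 (median 4019) in labelled MKO mice on the control diet. On CR the 2 ranges of Psmc3 were 3278 to 3669 (median 3420) and 3818 to 4082 (median 4024). This ATPase was 1.15-fold higher on the control diet (adjusted p = 0.000213) and 1.16-fold on CR (adjusted p = 9.8e-05), without overlap on either. Psmc2 and Psmc4 were called higher on both diets, Psmc1 on the control diet and Psmc5 on CR, with log2 changes of 0.13 to 0.34 where called. The calls of Psmc1 and Psmc2 on the control diet ended when 1 FLOX mouse was left out (mouse 6 and mouse 4, adjusted p = 0.0602 and 0.0609), and without the 3 arrays of highest slow fibre index (adjusted p = 0.0751 and 0.0753).

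Of the other base subunits, Psmd4, an intrinsic receptor for ubiquitin chains, was called higher on both diets. It read 3288 to 3667 (median 3511) in control-diet FLOX and 3705 to 4400 (median 4014) in control-diet labelled MKO mice, and 2961 to 3295 (median 3259) in CR FLOX and 3600 to 4263 (median 3922) in CR labelled MKO mice. The genotypes did not overlap, at 1.15-fold (adjusted p = 0.00129) on the control diet and 1.23-fold (adjusted p = 1.21e-05) on CR. A second probe set gave like values (log2 changes of 0.21 and 0.32). The third, the dimmest at a mean intensity of 596.0, gave 0.03 and -0.15, the last of these called lower when all probe sets were tested (adjusted p = 0.0208). Psmd2, the large scaffold that docks ubiquitin shuttle proteins, read 3878 to 4822 (median 4690) in CR FLOX and 5239 to 5921 (median 5511) in CR labelled MKO mice, without overlap. On the control diet Psmd2 read 4874 to 5879 (median 5256) and 5395 to 6012 (median 5743), with overlap and no call (adjusted p = 0.0976). Psmd1, the other large scaffold, was called higher on both diets, by 0.13 and 0.11 on the log2 scale, the second of these not called once FLOX mouse 1 or mouse 2 of that diet was left out (adjusted p of 0.0721 at most).

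In the lid, the deubiquitinating part, 3 of 8 genes were called higher on the control diet and 5 of 8 on CR. Psmd6, a structural subunit of the lid, read 5321 to 5780 (median 5510) in control-diet FLOX and 6027 to 6629 (median 6356) in control-diet labelled MKO mice, and 4919 to 5274 (median 5082) in CR FLOX and 6058 to 6912 (median 6370) in CR labelled MKO mice. The genotypes did not overlap on CR, where the log2 change was 0.32 ± 0.03 (1.25-fold, adjusted p = 7.37e-08), or on the control diet, where it was 0.19 ± 0.03 (adjusted p = 0.000203). Psmd8, a lid subunit that joins last in assembly, read 4424 to 5415 (median 4739) in control-diet FLOX and 5296 to 6585 (median 5810) in control-diet labelled MKO mice. On CR it read 3813 to 4908 (median 4306) in FLOX and 5380 to 6804 (median 5687) in labelled MKO mice. Psmd8 had the largest log2 change of the set, 0.43 ± 0.06 (1.35-fold, adjusted p = 6.65e-06) on CR without overlap, and 0.29 ± 0.06 on the control diet with 6 of 7 mice above every FLOX mouse. Psmd11 was called on both diets and Psmd7 on CR, with log2 changes of 0.17 to 0.19, though Psmd7 was not called when its 3 probe sets were averaged.

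Psmd14, the deubiquitinase of the lid, read 2270 to 2379 (median 2330) in control-diet FLOX and 2331 to 2638 (median 2499) in control-diet labelled MKO mice. On CR it read 2238 to 2526 (median 2371) in FLOX and 2408 to 2731 (median 2599) in labelled MKO mice, with overlap on both diets. It was called on CR only (0.11 ± 0.04, adjusted p = 0.0384), a call lost without any 1 of CR FLOX mice 1 to 4 and CR labelled MKO mice 1, 2, 4 and 7 (adjusted p up to 0.105). Psmd3, Psmd12 and Psmd13 were not called. Of the assembly chaperones Psmd5 and Psmd10 were called higher on both diets, by 0.10 to 0.19, while Psmd9 stood at -0.10 on both and was not called. The calls of Psmd10 were lost without any 1 of 5 mice on the control diet (FLOX 4 and 5, labelled MKO 1, 2 and 4; adjusted p up to 0.0929) and any 1 of 8 on CR (FLOX 1, 2, 3, 4 and 6, labelled MKO 2, 4 and 6; adjusted p up to 0.0871). Psmc3ip read 461 to 591 over all mice and was called in no comparison, with genotype differences of -0.04 ± 0.05 and -0.05 ± 0.05.

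Complete separation of the genotypes was frequent. All 7 labelled MKO mice lay above all 6 FLOX mice for 12 of the 35 proteasome genes on the control diet (5 core, 7 regulatory), against 2.96% of all genes tested, and for 16 on CR (6 core, 10 regulatory), against 3.34%. With the slow fibre index of each mouse as a covariate, 19 of 19 calls on the control diet and 23 of 24 on CR were kept. The call of Psmd10 on CR was lost (adjusted p = 0.0565). The index leaves out Myl3 and Myl2, the slow markers called between genotypes, so a difference seen in those genes was not adjusted for.

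Several probe sets passed the filter for 17 of the proteasome genes, 43 probe sets in all. When probe sets were tested singly, 29 of the 61 that passed were called higher in labelled MKO mice on the control diet and none lower, and 34 were called higher and 1 lower on CR. The shares of all genes given above come from the fit by gene and are not a background for these counts of probe sets. The probe sets of a gene had 1 sign for 11 of the 17 genes on the control diet and for 12 on CR. Psmd4 was the only gene called both ways. Under CR relative to the control diet, 2 probe sets were called higher and 7 lower in FLOX mice. In labelled MKO mice 3 were called higher and 4 lower. The 2 called higher in FLOX were the dimmest of Psmd4 and another than the brightest of Psma6 (0.14, adjusted p = 0.0189). For these diet effects the probe sets of a gene had 1 sign for 10 of the 17 genes in each genotype.

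Under CR 6 of the 35 proteasome genes were called in FLOX and 5 in labelled MKO mice. In FLOX mice none was called higher, against 4.94% of all genes tested. There 6 (17.1%) were called lower, 1 core and 5 regulatory, against 5.7% of all genes. An unadjusted p under 0.05 was found in FLOX for 14 of the 35, against 3269 of the 14088 genes tested. The median log2 change was -0.03 in the core and -0.05 in the regulatory particle, and 0.00 over all genes. The sign of the core median in FLOX depended on the processing, as given at the end. In labelled MKO mice 2 core genes were called higher, against 6.96% of all genes, and 3 genes lower, 1 core and 2 regulatory, against 8.98%. In labelled MKO mice 12 had an unadjusted p under 0.05, against 3908 of the 14088 genes tested. There the shares of proteasome genes called (5.71% and 8.57%) were close to those of all genes. The medians were 0.04 in the core and -0.03 in the regulatory particle, and the sign of the second depended on the processing. Without control-diet labelled MKO mouse 3 the core median was 0.0021.

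**Figure D4:**
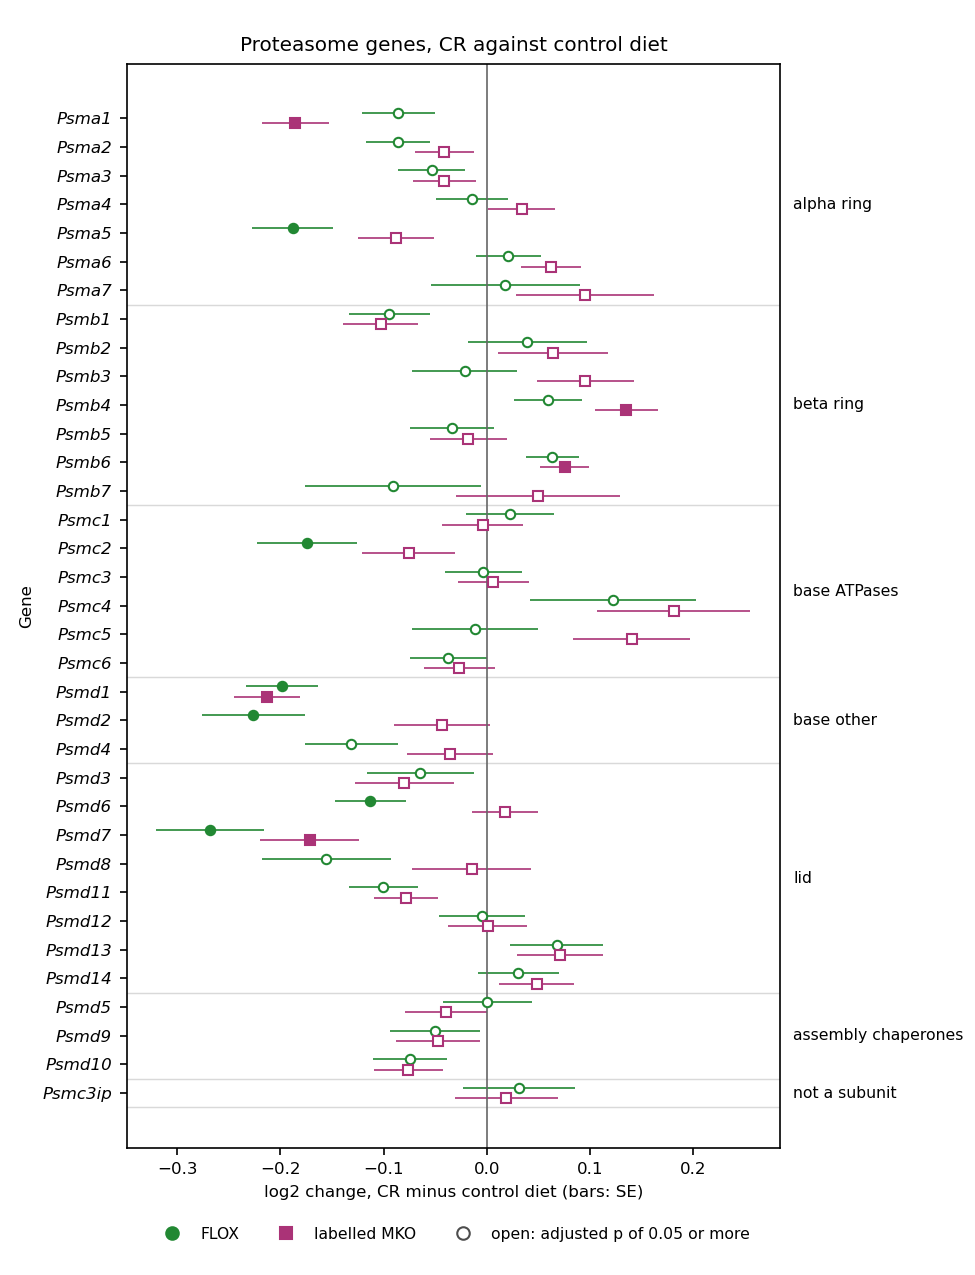
Log2 change of the 35 tested proteasome genes under CR relative to the control diet, in FLOX (green circles) and labelled MKO mice (purple squares), ordered by part of the particle, with bars for the SE of the limma fit and open symbols for genes not called. Psmd1 and Psmd7 are filled and left of 0 in both genotypes, Psma5, Psmc2, Psmd2 and Psmd6 in FLOX only and Psma1 in labelled MKO mice only, while Psmb4 and Psmb6 are filled and right of 0 in labelled MKO mice.

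Psmd1 and Psmd7 were called lower under CR in both genotypes. That is 33.3% of the 6 genes called lower in FLOX and 66.7% of the 3 called lower in labelled MKO mice. Among all genes tested, 803 were called lower in FLOX and 1265 in labelled MKO mice, and 570 in both. Psmd1 read 3205 to 3454 (median 3321) in control-diet FLOX and 2687 to 3047 (median 2949) in CR FLOX mice, and 3511 to 3766 (median 3648) in control-diet labelled MKO and 2978 to 3229 (median 3170) in CR labelled MKO mice. Every CR mouse lay below every control-diet mouse of its genotype, at -0.20 ± 0.03 (adjusted p = 0.000459) and -0.21 ± 0.03 (adjusted p = 4.91e-05) on the log2 scale. Psmd7, the inactive partner of the lid deubiquitinase, read 2444 to 2878 (median 2665) in control-diet FLOX and 1987 to 2416 (median 2224) in CR FLOX mice. In labelled MKO mice it read 2529 to 3068 (median 2880) on the control diet and 2409 to 2606 (median 2537) on CR. The diet groups of Psmd7 were apart in FLOX (-0.27 ± 0.05, adjusted p = 0.00121) and overlapped in labelled MKO mice (-0.17 ± 0.05, adjusted p = 0.015).

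The other calls under CR stood in 1 genotype. In FLOX mice Psma5, an alpha subunit, read 2802 to 2974 (median 2884) on the control diet and 2358 to 2694 (median 2522) on CR, without overlap (-0.19 ± 0.04, adjusted p = 0.00238). Psmd2, whose FLOX values are given with the base subunits, also fell without overlap (-0.23 ± 0.05, adjusted p = 0.00373). Psmc2 and Psmd6 were called lower in FLOX, at -0.17 and -0.11. Psmc2 was not called when FLOX mouse 2 of the control diet or FLOX mouse 4 of CR was left out (adjusted p of 0.0626 at most), or with a probe set less open to binding several transcripts. Psmd6 was not called without any 1 of control-diet FLOX mice 2, 4 and 5 and CR FLOX mice 1, 3, 4 and 6 (adjusted p up to 0.0861), nor under quantile normalization (adjusted p = 0.12). In labelled MKO mice Psma1, an alpha subunit, read 2885 to 3172 (median 2975) on the control diet and 2470 to 2777 (median 2674) on CR, without overlap (-0.19 ± 0.03, adjusted p = 0.000252). The average of the 3 passing probe sets of Psma1 gave -0.04 in labelled MKO mice (adjusted p = 0.531). In FLOX mice Psma1 read 2764 to 3042 on the control diet and 2579 to 2757 on CR. There it was also without overlap, but not called (-0.09 ± 0.04, adjusted p = 0.127). Psmb4 rose under CR in labelled MKO mice from a median of 5552 to 5967, with 6 of 7 CR mice above every control-diet mouse (0.14 ± 0.03, adjusted p = 0.00299). Psmb6 rose from a median of 4795 to 4979, with no overlap, but by only 0.08 ± 0.02 (adjusted p = 0.0322), and the call was lost without any 1 of control-diet mice 4 and 5 and CR mice 1 and 7 (adjusted p up to 0.0658). None of Psmb5, Psmb7, Psmd4, Psmd14 and Psmc3ip was called under CR in either genotype. Psmd4 came nearest in FLOX, where 5 of 6 restricted mice were below all control-diet mice (-0.13 ± 0.04, adjusted p = 0.0592). The dimmest probe set of Psmd4 went the other way in FLOX and was called higher when probe sets were tested singly (0.15, adjusted p = 0.0413).

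Markers of some other cell types moved with the diet, while none of the satellite cell, adipocyte and Schwann cell markers tested was called under CR. Of the 11 fibroblast and tendon markers, 8 were called lower under CR in each genotype, against 5.7% (FLOX) and 8.98% (labelled MKO) of all genes. Their summed intensity was 18315 to 27945 in control-diet FLOX, 12452 to 16706 in CR FLOX, 18719 to 25635 in control-diet labelled MKO and 9729 to 17489 in CR labelled MKO mice. Of the 10 endothelial markers 2 were lower under CR in FLOX and 5 under CR in labelled MKO mice. In labelled MKO relative to FLOX mice, 3 of the endothelial markers were lower on the control diet and 4 on CR, against 10.8% and 9.52% of all genes. Their sums were 8244 to 9614, 8325 to 9015, 8023 to 9428 and 7017 to 8482 in control-diet FLOX, CR FLOX, control-diet labelled MKO and CR labelled MKO mice. The part of these cells in the proteasome values was not tested.

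No proteasome gene was called for the interaction, the diet effect in labelled MKO mice minus that in FLOX mice. None of the 14088 genes tested was called either (0%), with 693 genes and 3 proteasome genes at an unadjusted p under 0.05. The smallest p of the set were those of Psmd6 (0.13 ± 0.05) and Psmd2 (0.18 ± 0.07), each with an adjusted p of 0.985. The genotype difference with its sign, labelled MKO minus FLOX, was higher on CR than on the control diet for 27 of 35 proteasome genes (77.1%). Over all genes this share was 49.3%. It is no count of sizes, since Psmb2 and Psmd9 are among the 27 though they were below 0 on both diets and nearer to it on CR. The genes share the same mice, and the median extra difference was 0.02 on the log2 scale.

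Among mice of a group, most pairs of proteasome genes varied in the same direction, weakly. Over deviations from the group means in 26 mice, the median Pearson r was 0.18 over the 595 pairs of proteasome genes, 71.8% of them positive, and 0.02 over all pairs of genes tested. All these points share an array and its normalization. The median was 0.23 within the core, 0.18 within the regulatory particle and 0.17 between them. Over the 595 pairs the median was 0.31 after each array was centred on its median and 0.16 under quantile normalization. The 0.02 over all pairs of genes tested was computed on the values as deposited. It is no background for the 0.31 or the 0.16. Psmd4 had the highest mean r with the other proteasome genes (0.35), and Psmc3ip had the lowest (-0.02).

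Genes that act beside the proteasome were read from lists of its partners. List medians are set against the -0.02 of all genes between genotypes on each diet and 0.00 under CR in each genotype. Of the immunoproteasome subunits, which replace the catalytic subunits in immune responses, none of 3 was called between genotypes (medians 0.04 and -0.11) or under CR in FLOX (median -0.19). Psmb8 (-0.41 ± 0.11, adjusted p = 0.0105) and Psmb9 (-0.26 ± 0.07, adjusted p = 0.0127) were lower under CR in labelled MKO mice (list median -0.26). With CR FLOX mouse 1, the brightest of its group for Psmb8, left out, 2 of the 3 subunits were called lower in FLOX as well, and the diet effect of neither gene was called different between genotypes (adjusted p = 0.999). Of 13 macrophage and leukocyte markers tested, 3 were lower under CR in FLOX and 2 in labelled MKO mice. Their sums were 6626 to 8873 in control-diet FLOX, 4968 to 7170 in CR FLOX, 5964 to 9332 in control-diet labelled MKO and 5129 to 6257 in CR labelled MKO mice, and their part in the values of Psmb8 and Psmb9 was not tested. Of the 5 activators, inhibitor and scaffold genes tested, 1 was higher on the control diet, and 1 higher and 1 lower on CR, in labelled MKO mice (medians -0.05 and 0.03). Under CR 1 was lower in FLOX and 3 in labelled MKO mice (medians -0.14 and -0.20). Psme4, a large cap of the core, was higher in labelled MKO mice on both diets and lower under CR in both genotypes. It read 5770 to 7043 (median 5966) in control-diet FLOX, 6746 to 8066 (median 7122) in control-diet labelled MKO, 4132 to 4958 (median 4632) in CR FLOX and 4799 to 5824 (median 5530) in CR labelled MKO mice. The diets did not overlap in either genotype, and the genotypes overlapped on both diets. The genotype effects of Psme4 were 0.21 ± 0.06 (adjusted p = 0.00776) and 0.25 ± 0.06 (adjusted p = 0.00181), the first not called without the 3 arrays of highest slow fibre index (adjusted p = 0.0566), and the diet effects were -0.43 ± 0.06 in FLOX (adjusted p = 2.17e-05) and -0.39 ± 0.05 in labelled MKO mice (adjusted p = 1.48e-05). Psme1, a subunit of the cap induced in immune responses, was lower in labelled MKO mice on CR (-0.22 ± 0.06, adjusted p = 0.0132), and Ecpas was lower under CR in labelled MKO mice (-0.22 ± 0.06). Of 5 assembly chaperones outside the rule, only Psmg1 was called between genotypes, lower in labelled MKO mice on both diets (-0.14 ± 0.05 each, list medians -0.01 and -0.07). The calls of Psmg1 were lost under quantile normalization (adjusted p = 0.0709 and 0.108) and in 8 and 16 of the 26 fits that left out 1 mouse (adjusted p up to 0.0865 and 0.124). Psmg3 was the 1 gene of this list called lower under CR, in labelled MKO mice (-0.11 ± 0.04, list medians -0.05 in FLOX and -0.04 in labelled MKO mice), a call lost without any 1 of 7 mice (adjusted p up to 0.0853).

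Among 11 receptors, deubiquitinases and shuttles, 3 were called higher and 1 lower in labelled MKO mice on the control diet, and 4 higher on CR (medians 0.12 and 0.10). Under CR 2 were lower in FLOX and 1 in labelled MKO mice (medians -0.06 and -0.04). Usp14, a deubiquitinase that binds the base, was higher on both diets (0.18 ± 0.05 and 0.25 ± 0.05), though on the control diet not without FLOX mouse 4, 5 or 6 (adjusted p up to 0.0607) and on CR not when its probe sets were averaged (adjusted p = 0.272). Txnl1 was higher on both diets (0.23 ± 0.05 and 0.16 ± 0.05), and Uchl5, another deubiquitinase of the proteasome, on CR (0.21 ± 0.05). Of 8 ubiquitin-conjugating and activating genes tested, 3 were higher on the control diet and 5 on CR and none was lower (medians 0.11 and 0.15). Under CR 1 was higher and 1 lower in each genotype (medians -0.04 and -0.06). The higher gene in FLOX, Ube2j1 (0.21 ± 0.07, adjusted p = 0.044), was not called in 9 of the 26 fits that left out 1 mouse: FLOX mice 1, 3 and 4 of the control diet, FLOX mice 1, 3, 5 and 6 of CR, and labelled MKO mouse 7 of the control diet and mouse 4 of CR. Ube2d3, a ubiquitin-conjugating enzyme, was the clearest of them (0.32 ± 0.04, adjusted p = 2.75e-06, and 0.28 ± 0.04, adjusted p = 1.24e-05). Of the 11 genes of the Vcp segregase, which pulls ubiquitinated proteins from complexes, 2 and 4 were higher in labelled MKO mice on the 2 diets (medians 0.02 and 0.07), and 2 were lower under CR in each genotype (medians -0.03 and 0.03). Vcp was 0.21 ± 0.04 and 0.16 ± 0.04 higher in labelled MKO mice. Under CR it stood at -0.26 ± 0.04 in FLOX, a call lost when its probe sets were averaged (adjusted p = 0.0707), and at -0.30 ± 0.04 in labelled MKO mice.

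**Figure D5:**
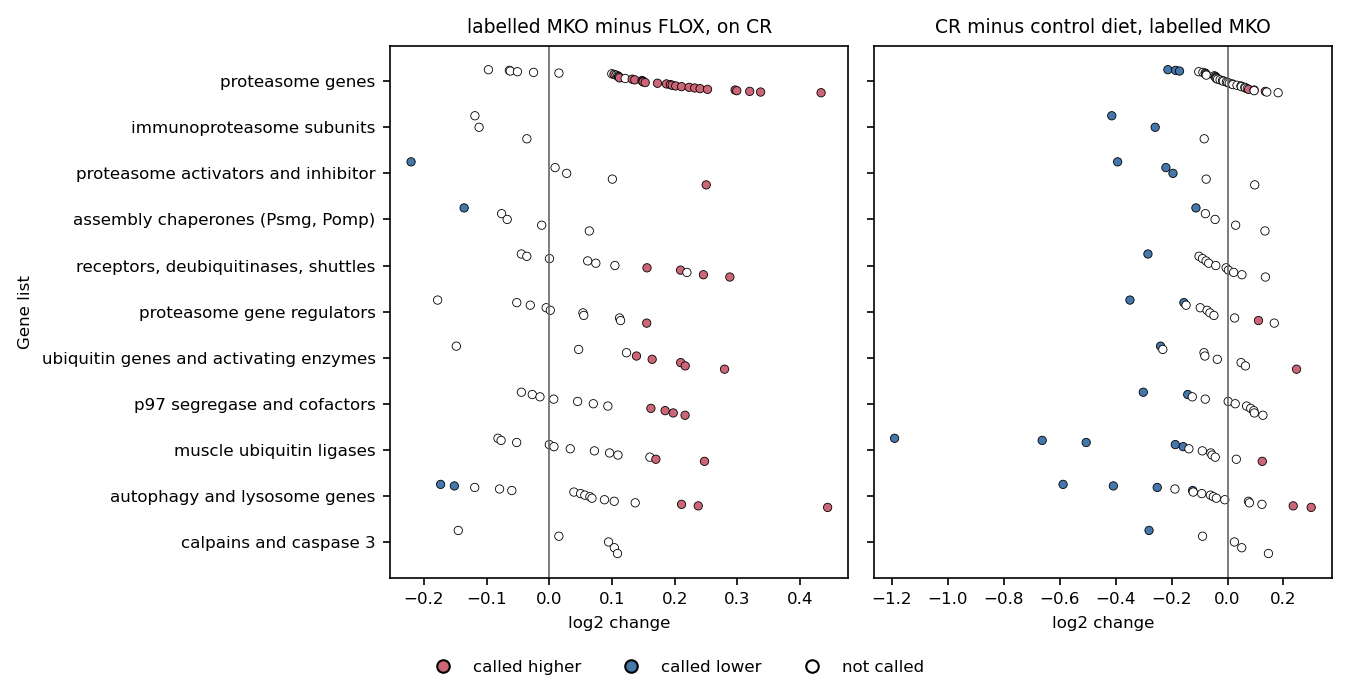
Log2 change of each tested gene in the proteasome set and in 10 lists of its partners, for labelled MKO relative to FLOX mice on CR (left) and for CR relative to the control diet in labelled MKO mice (right), coloured by whether limma called the gene higher (red), lower (blue) or neither (white). On the left the proteasome row holds 24 red genes and no blue gene, and on the right it holds 2 red and 3 blue.

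Of 10 regulators of proteasome genes, 1 was called higher between genotypes on each diet, Ngly1, the glycanase that processes the Nfe2l1 product (0.15 ± 0.04 and 0.16 ± 0.04; list medians 0.04 and 0.03). Under CR 3 were lower in FLOX, and 2 lower and 1 higher in labelled MKO mice (medians 0.02 and -0.07). Nfe2l1 itself, whose product induces proteasome genes, read 3043 to 3374 (median 3154) in control-diet FLOX and 2764 to 3552 (median 2962) in control-diet labelled MKO mice. On CR it read 2433 to 3080 (median 2831) in FLOX and 2608 to 2943 (median 2697) in labelled MKO mice. Nfe2l1 was not called between genotypes (-0.06 ± 0.05 and -0.03 ± 0.05) and was lower under CR in both (-0.18 ± 0.06, adjusted p = 0.0338, and -0.16 ± 0.05, adjusted p = 0.0378). The groups overlapped in all 4 comparisons. The 2 diet calls of Nfe2l1 were lost under quantile normalization and without any 1 of 6 and of 8 mice (adjusted p up to 0.0963 and 0.0979). Mafg, a partner of such factors, was lower under CR in both genotypes (-0.37 ± 0.07 and -0.35 ± 0.07).

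Of 12 muscle ubiquitin ligases tested, 2 were higher and 1 lower in labelled MKO mice on the control diet and 2 higher on CR (medians 0.15 and 0.05). Nedd4 was 0.19 ± 0.04 and 0.25 ± 0.04 higher and Mdm2 0.17 ± 0.04 higher on each diet. Under CR 3 were lower in FLOX, and 5 were lower and 1 higher in labelled MKO mice (medians -0.13 and -0.11). The count of 3 in FLOX was 2 without FLOX mouse 2 or 3 of the control diet and 5 without FLOX mouse 5 of CR. Fbxo32, the ligase atrogin-1, read 1706 to 3780 (median 2284) in control-diet FLOX, 2449 to 5317 (median 3403) in control-diet labelled MKO, 983 to 2303 (median 1397) in CR FLOX and 1188 to 3404 (median 1305) in CR labelled MKO mice, with overlap in all 4 comparisons. Fbxo32 was lower under CR in labelled MKO mice (-1.19 ± 0.25, adjusted p = 0.00152), missed the threshold in FLOX (-0.80 ± 0.27, adjusted p = 0.0563), where it was called in 7 of 44 other settings, and was not called between genotypes. Trim63, the ligase MuRF1, was likewise lower under CR in labelled MKO mice (-0.51 ± 0.13, adjusted p = 0.00619) and not called in FLOX (-0.31 ± 0.14, adjusted p = 0.158). For neither ligase was the diet effect called different between genotypes (adjusted p = 0.999). Asb2 was lower under CR in both genotypes (-0.48 ± 0.09 and -0.66 ± 0.08).

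Among 16 autophagy and lysosome genes, 3 were higher and 1 lower in labelled MKO mice on the control diet, and 3 higher and 2 lower on CR (medians 0.07 and 0.06). Ctsl, a lysosomal protease, was 0.34 ± 0.07 and 0.44 ± 0.07 higher. Under CR 5 were lower and 2 higher in FLOX, and 4 lower and 2 higher in labelled MKO mice (medians -0.03 and -0.06), led by Sqstm1, a receptor for ubiquitinated cargo (-0.43 ± 0.05 and -0.41 ± 0.05), and Ulk1, a kinase that starts autophagy (-0.41 ± 0.07 and -0.59 ± 0.07). Of 5 calpain and caspase genes tested, only Capn3, the muscle calpain, was called. It was lower under CR in both genotypes (-0.16 ± 0.05 and -0.28 ± 0.05; list medians -0.05 and 0.02), in FLOX not under quantile normalization (adjusted p = 0.0612) or without any 1 of 7 mice (adjusted p up to 0.0906), and higher in labelled MKO mice on the control diet (0.22 ± 0.05; list medians 0.05 and, on CR, 0.09).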

How the data were processed

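The deposited table gave 1 intensity per probe set and array on a linear scale for 45101 probe sets, processed by the authors; the background correction, summary and normalization are not given in the sources used here. Every column was mapped to a mouse by its label (0 columns were left over). Of the probe sets, 34945 name 1 gene in GEO's platform annotation. Values were analysed as log2(deposited intensity + 16), which understates changes of dim genes. Probe sets whose mean was under the 30th percentile of those naming 1 gene (7.58) were left out, and each gene was represented by its brightest remaining probe set. Group means over 26 arrays were fitted and compared in R 4.3.3 using lmFit and eBayes of limma 3.58.1, with Benjamini-Hochberg adjustment over 14088 genes, called under 0.05. The script was tested on simulated data. Levels were not compared between probe sets. P-values measure the spread between mice, and the number of arrays limits precision.

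The members and lists were chosen with earlier results of these data known. Members named with values are the 3 of smallest p among those called per comparison and particle, the 2 of smallest p for the interaction, and Psmb5, Psmb6, Psmb7, Psmd4, Psmd14 and Psmc3ip; from each list at most 2 called genes per comparison, and Nfe2l1, Fbxo32, Trim63 and Ppargc1a. Myl2 and Myl3 were named after their values were seen. Alternatives changed the pseudocount, filter, scaling, probe set, variance model, array weights, arrays, members, block and threshold. Genes without a probe set naming them alone were not analysed here.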

Additional observations from a re-analysis of the deposited data

Results flagged for a closer look

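In 17 of the 228 groups of values tested (7.46%, where chance gives about 1 in 20), 1 mouse lay far from the rest of its group, by Dixon's criterion at the 95% level. Among proteasome genes these were Psmb4 in CR FLOX mouse 4 (4955, the others 5266 to 5419), Psmb5 in CR labelled MKO mouse 7 (5257, the others 4774 to 4879), Psmb7 in control-diet labelled MKO mouse 3 (5528, the others 8702 to 9696) and Psmb7 in CR labelled MKO mouse 2 (7744, the others 8595 to 9276). Control-diet labelled MKO mouse 3 was also highest in its group for Ecpas (1978, the others 1605 to 1688) and Ppargc1a (2360, the others 1244 to 1518).

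Of the partner genes, mice stood high for Psmb8 (509.3 in CR FLOX mouse 1, the others 272.4 to 340.0), Psme4 (8066 in control-diet labelled MKO mouse 4, the others 6746 to 7241), Psmg3 (520.7 in control-diet FLOX mouse 4, the others 462.9 to 480.9), Uchl5 (1507 in CR FLOX mouse 5, the others 1309 to 1371), Asb2 (8517 in CR labelled MKO mouse 5, the others 6084 to 6858), Sqstm1 (5822 in CR FLOX mouse 3, the others 4741 to 5106) and Ulk1 (1049 in CR labelled MKO mouse 5, the others 816.8 to 883.1). Mice stood low for Ube2j1 (668.8 in CR labelled MKO mouse 1, the others 795.8 to 876.7), Ube2d3 (6394 in CR FLOX mouse 4, the others 6717 to 6891), Asb2 (7388 in control-diet FLOX mouse 6, the others 9283 to 10336) and Tfeb (947.0 in CR FLOX mouse 6, the others 1014 to 1056).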

How the results depend on the processing

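Across the alternatives and single mice left out, 44 settings in all, the proteasome genes called higher in labelled MKO mice numbered 13 to 23 on the control diet and 18 to 27 on CR, and those called lower under CR in FLOX 4 to 9. The call was kept under all of them, thresholds aside, for 12 of 19 genes on the control diet and 17 of 24 on CR. Quantile normalization gave core medians of 0.0496 on the control diet and 0.0951 on CR, a regulatory median of 0.153 on CR, and 1 gene higher under CR in FLOX. Averaging probe sets also gave a regulatory median of 0.153 on CR. The genes higher under CR in labelled MKO mice numbered 1 under median centring, with only the 2 groups compared, with the replicate block, at a threshold of 0.01 and without the 3 arrays of highest slow fibre index. Those lower numbered 5 at a threshold of 0.10 and without those arrays. At 0.10, 1 gene was lower in labelled MKO mice on the control diet. With 1 mouse left out, these counts were 1 to 3, 3 to 5 and 0 to 1, and the core median under CR in labelled MKO mice was 0.00211 to 0.0533. The causes were not tested.

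Over the 44 settings the core median under CR in FLOX ran from -0.0362 to 0.00669. The regulatory median under CR in labelled MKO mice ran from -0.0474 to 0.00132, so both turned sign. For single genes, signs turned only for differences that were not called. Psmb5 between genotypes on the control diet gave 0.0186 under median centring, 0.0119 under array weights, 0.00341 without the slow arrays, 0.0133 with the slow fibre covariate and -0.0189 to 0.0243 with 1 mouse left out. On CR it gave -0.0514 under quantile normalization and -0.00207 to 0.0270 with 1 mouse left out. Under quantile normalization, Psmb5 and Psmd4 under CR in labelled MKO mice gave 0.00395 and 0.00132. Psmb7 gave 0.0155 on the control diet under array weights. With 1 mouse left out Psmb7 gave -0.0606 to 0.0743 on the control diet and -0.0544 to 0.0806 under CR in labelled MKO mice. Psmc3ip then gave -0.00261 to 0.0543 and -0.00579 to 0.0392 under CR in FLOX and labelled MKO mice, and Fbxo32 gave -0.0226 to 0.30 between genotypes on CR. With the replicate block 18 and 23 proteasome genes were called higher between genotypes. Mice of the same number in 37 pairs correlated at -0.365 to 0.345 (median 0.0804). Mice of different numbers in 216 pairs correlated at -0.428 to 0.5 (median -0.01). Of 26 arrays, 2 correlated best with their own number. With ranges this wide, weak sharing between mice of the same number cannot be told from none. The filter over all probe sets and both settings of slow fibres were chosen after seeing the data. Intensities near the floor of 56.6 to 62.8 limit dim genes.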
